A study of Mus musculus with 7 samples.

Results

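The genes described here are those of the proteasome, found on the array by symbols that begin with Psma, Psmb, Psmc, Psmd or Psme followed by a number. The rule gave 43 of the 12393 genes that probe sets name by exactly 1 symbol, and each gene was read from its brightest probe set, by the mean of the 7 arrays. The 43 comprised 8 alpha and 7 constitutive beta subunits of the 20S core, 4 subunits of the immunoproteasome and 6 ATPases and 11 other subunits of the 19S cap. The remainder were 3 chaperones that assemble the cap, 2 other activators, and Psmc3ip and Psme3ip1. Those last genes encode binding partners rather than subunits, so they enter the count of 43 and none of the subunit classes. Psme2 was named only on a probe set shared with Psme2b, so it has no value here. Psma8, a core alpha subunit known from the testis, read 254 to 342 intensity units on the 7 arrays and lay below the filter on dim probe sets, which left 42 members tested.

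Total RNA of heart tissue was taken from the left ventricle of males at an age of 21 months and measured on Affymetrix arrays with 1 array per mouse. The mice were 3 labelled eNOS (-/-), called knockout here (M4, M10 and M140), and 4 labelled (+/+), called wild type (M23, M125, M128 and M158). eNOS, encoded by Nos3, is the endothelial nitric oxide synthase. Per the labels, the aim was a search for markers and mechanisms of the heart failure of aged knockout males. Exercise stands in the series title and as a keyword, but no label gives an exercise state, a strain or how the allele was made, and a whole-body deletion cannot be told from another kind by them.

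The proteasome is the large protease that degrades ubiquitin-tagged proteins in the cytosol and nucleus. Its barrel, the 20S core, has outer rings of alpha subunits and inner rings of beta subunits, of which Psmb5, Psmb6 and Psmb7 carry the catalytic sites. The 19S cap binds tagged proteins, removes the ubiquitin, unfolds the chain with a ring of ATPases and feeds it into the core. In cells exposed to interferon gamma, Psmb8, Psmb9 and Psmb10 replace Psmb5, Psmb6 and Psmb7, and Psme1 and Psme2 form a ring that opens the core without the cap. In heart muscle the proteasome removes damaged and surplus contractile proteins.

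Of the 43 members, 36 had an upstream window in RefSeq's GRCm38.p6 promoter table, and 4 windows are shown because they belong to genes the results turn on. Each is the 250 bases before the gene's start, 5′ to 3′ on the gene's strand, with every matched motif in capitals on whichever strand it was found. The window of Psmc1, the cap ATPase with the largest difference, lies at chr12:100109952-100110201 on the plus strand and holds a CCAAT box and an ETS word. That of Psmd4, the cap's ubiquitin receptor and the cap subunit whose groups did not overlap, lies at chr3:95042615-95042864 on the minus strand and holds a CCAAT box and a match to the interferon-stimulated response element. The window of Psmb5, at chr14:54617996-54618245 on the minus strand, holds a match to the antioxidant response element. The window of Psmb8, which stands in for Psmb5 in the immunoproteasome, lies at chr17:34197945-34198194 on the plus strand and holds a match to the gamma-interferon activated site.
Psmc1: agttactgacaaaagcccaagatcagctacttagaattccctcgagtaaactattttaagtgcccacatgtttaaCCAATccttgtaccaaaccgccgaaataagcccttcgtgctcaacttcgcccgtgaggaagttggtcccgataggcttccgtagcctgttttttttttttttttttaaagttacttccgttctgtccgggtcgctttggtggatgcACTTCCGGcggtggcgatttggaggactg
Psmd4: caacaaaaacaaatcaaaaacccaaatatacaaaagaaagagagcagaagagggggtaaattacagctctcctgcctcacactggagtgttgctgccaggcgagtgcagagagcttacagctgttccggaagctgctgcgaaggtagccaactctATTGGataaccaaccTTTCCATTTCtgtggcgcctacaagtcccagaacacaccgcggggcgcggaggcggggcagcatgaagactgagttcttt
Psmb5: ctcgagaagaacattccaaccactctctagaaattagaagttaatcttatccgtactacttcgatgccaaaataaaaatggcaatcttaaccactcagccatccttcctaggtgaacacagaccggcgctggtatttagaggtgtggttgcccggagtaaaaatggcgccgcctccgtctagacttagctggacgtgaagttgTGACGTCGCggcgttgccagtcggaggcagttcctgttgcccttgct
Psmb8: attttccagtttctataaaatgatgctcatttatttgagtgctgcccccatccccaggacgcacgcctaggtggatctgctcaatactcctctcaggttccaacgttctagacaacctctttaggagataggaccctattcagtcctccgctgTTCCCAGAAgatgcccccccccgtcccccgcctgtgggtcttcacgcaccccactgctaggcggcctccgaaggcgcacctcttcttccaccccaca

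Both strands were searched for 5 motifs, and no 2 of them share bases in these 4 windows. The antioxidant response element, TGACNNNGC, is the kind of site read by Nfe2l1 and Nfe2l2. Matches were counted by gene, in any window of the gene. This element was in 5 of 36 members (13.9%), which were Psmb5, Psmb6, Psmc6, Psmd12 and Psmd9, and in 11.5% of all 27025 genes. CCAAT was in 15 of 36 (41.7%) against 37.5%. The interferon-stimulated response element, searched as a pair of GAAA words with any 2 bases between them, was in 3 of 36 (8.33%) against 3.46%. Those 3 were Psmb3, Psmd4 and Psmd9. Of the 4 immunoproteasome genes with a window, 0 held it. TTCNNNGAA, the gamma-interferon activated site, was in 1 of 36 (2.78%) against 8.13%. The ETS word ACTTCCGG was in 5 of 36 (13.9%) against 3.23%. The 5 were Psme4 and the cap genes Psmc1, Psmc2, Psmd12 and Psmd6. Of the genes with a window, 4 of 14 cap genes and 0 of 11 core genes held it. A match describes letters in the window and is no binding site, and a window without one may lack only these letters.

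The arrays stood at nearly the same overall level, with medians of 671 to 699 intensity units. Nos3 read 1145, 1413 and 1135 on the knockout arrays and 791, 1163, 872 and 1058 on the wild-type arrays. It is not given whether its probe set lies in the part that was disrupted, so Nos3 does not check the labels. Of 7 ventricular cardiomyocyte markers, 6 were at the upper limit of every array. Myl7, an atrial light chain, was at 17557 for M10 and 16097 for M125, against 356 to 2926 on the other 5 arrays. The Gapdh 5′ to 3′ ratio, a sign of RNA integrity, was 0.0978 on wild-type M23 and 0.340 to 0.777 on the others. Only hybridization day 1 held both genotypes, with knockout M140 and wild-type M128. M4 and M10 shared a day, as did M23 and M158, and M125 had its own, so that outside day 1 genotype and day cannot be told apart. In bulk tissue, fewer cells of a type and less RNA per cell cannot be told apart either.

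No member differed between the genotypes at an adjusted p under 0.05, and neither did any of the 8867 genes tested (0.0% by limma with Benjamini-Hochberg adjustment over 13836 probe sets). Below, values are intensities on M4, M10 and M140, then on M23, M125, M128 and M158. Differences are knockout minus wild type on the scale of log2(intensity + 16), with the standard error of limma, and the smallest exact two-sided permutation p for 3 against 4 arrays is 0.0571. At an unadjusted p under 0.05, limma had 3 of 42 members higher in the knockout, which were Psmd2, Psmd4 and Psme4, and 2 lower, which were Psmb3 and Psme1. Over all genes these shares were 6.77% and 5.4%, so the members' counts were near the background. The higher count went to 0 without knockout M4 or without wild-type M23. With array weights, which gave M4 the largest weight at 3.81 and M128 the smallest at 0.373, it was 10 and the lower count 2, against 12.9% and 10.9% of all genes. The groups did not overlap for 3 members, with Psmd4 and Psmb10 above and Psmb3 below, against 5.29% and 4.89% of all genes (10.2% in either direction).

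Most cap subunits read higher in the knockout, while core subunits lay near zero or below. Of 17 cap subunits, 15 read higher, with a median difference of 0.22 and a range of -0.25 to 0.65. Of 14 tested core subunits, 9 read lower, with a median of -0.073 and a range of -0.54 to 0.14. Over all genes, 49.4% read higher and 50.6% lower, and the median was -0.0027. A difference above 0.2 was found for 11 of 17 cap subunits and 16.3% of all genes, and 11 of 14 core subunits lay within 0.2 of zero, as did 71.2% of all genes. On hybridization day 1 alone, M140 read above M128 for 15 of 17 cap subunits, with a median of 0.54, and for 5 of 14 core subunits, with a median of -0.14, against 46.3% of all genes. Without M128 the cap median was 0.24 with 12 of 17 above zero (49.4% of all genes), and without M23 it was 0.15 with 13 of 17. Without M128, 7 of 14 core subunits read lower. By array, the median deviation of the cap subunits from their wild-type mean was 0.37 on M4, 0.12 on M10 and 0.33 on M140. It was -0.14 on M23, 0.16 on M125, -0.31 on M128 and 0.18 on M158, so M10 lay below M125 and M158. The SD of the cap median between arrays of a genotype was 0.20, close to the size of the difference. In an alternative chosen after seeing the data, the 7 cap subunits with a second tested probe set were read from it, and 2 of the 7 were above zero (Psmc2 and Psmc4), for 11 of 17 in all and a median of 0.21.

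**Figure D1:**
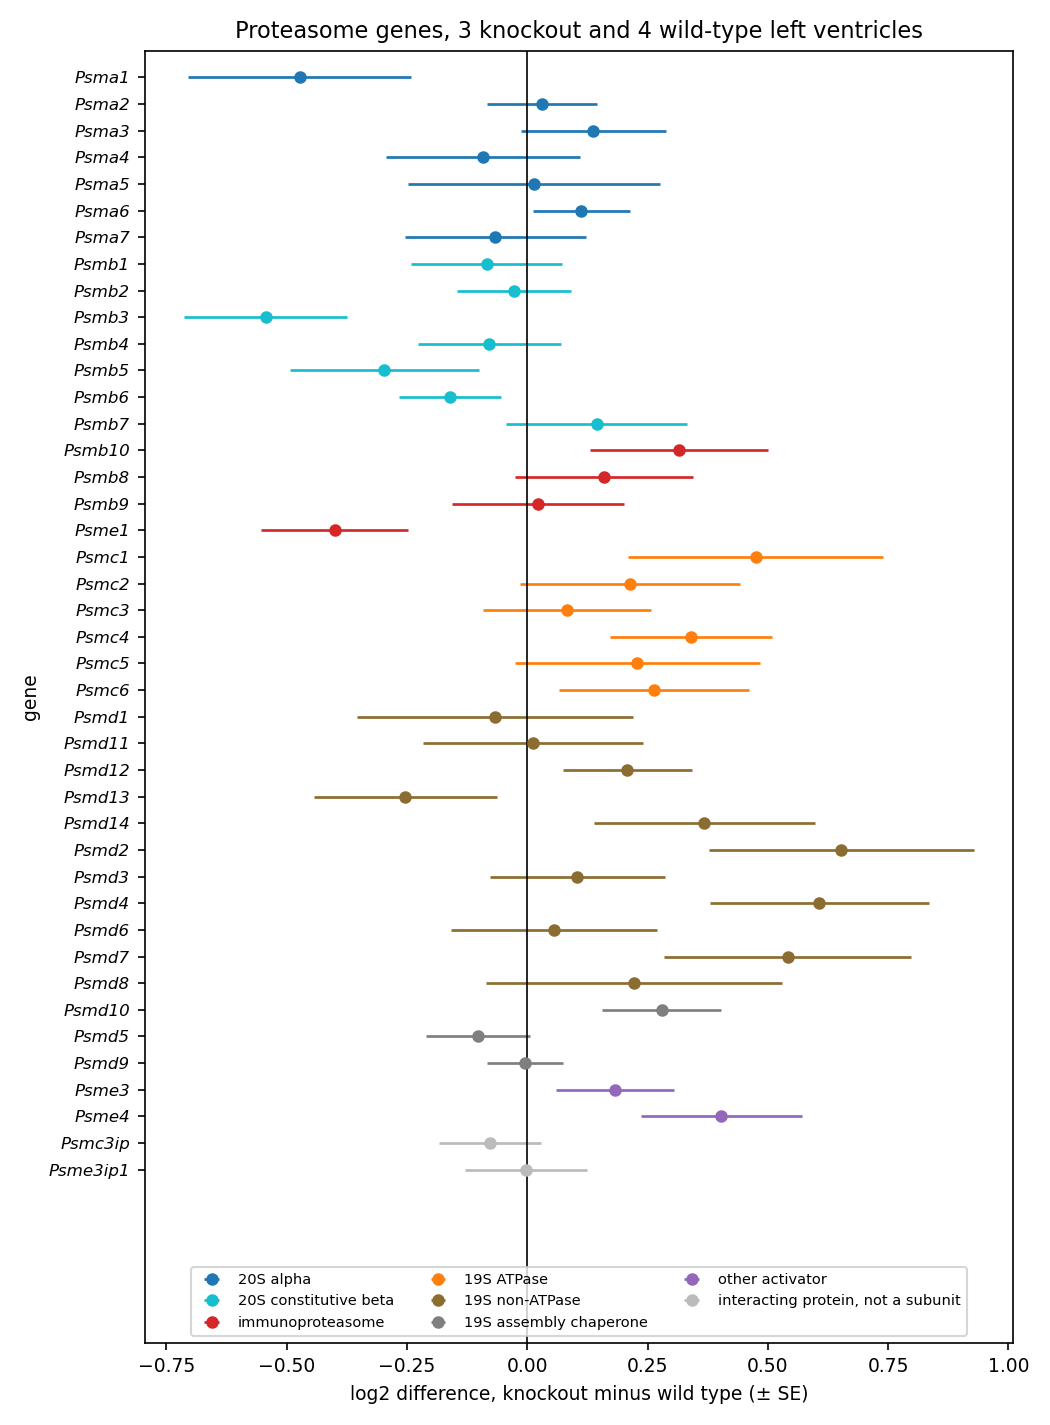
Log2 difference between knockout and wild type for each of the 42 tested proteasome genes, on the horizontal axis, with points for the estimate, bars for the standard error of limma and colours for the class. The 6 ATPases all lie to the right of zero at 0.08 to 0.47, while 11 of the 14 core subunits lie within 0.2 of zero.

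The alpha subunits, which form the gated outer rings of the core, were split, with 4 of 7 higher and a median of 0.014. Psma1 read 5125, 3449 and 5125 against 5125, 5456, 8882 and 6109. No knockout value was above the lowest wild-type value, which 2 of them equalled. Knockout arrays averaged 4566 ± 968 (SD, n = 3) against 6393 ± 1709 (SD, n = 4), a difference of -0.47 ± 0.23 (limma adjusted p = 0.484, exact permutation p = 0.171). Without M10 it was -0.28. Psma3 read 15777, 12255 and 17628 against 13616, 12718, 16384 and 12343, a difference of 0.14 ± 0.15. Its knockout arrays held both the highest and the lowest value, and without M140 the difference was 0.02. For Psma2, Psma4, Psma5, Psma6 and Psma7 the differences ran from -0.09 (Psma4) to 0.11 (Psma6), each smaller than or close to its standard error of 0.10 to 0.26. Among single arrays, knockout M10 held the lowest value for 4 of the 7 alpha genes, against 11.6% of all genes, and wild-type M128 the highest for 4 of 7, against 19.7%.

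Among the constitutive beta subunits of the inner rings, 6 of 7 read lower in the knockout, with a median of -0.085. Psmb3, a structural beta subunit without a catalytic site, read 13379, 11576 and 10674 in the knockout. It read 22355, 13421, 16971 and 17376 in the wild type. Every knockout value was below every wild-type value, although M4 and M125 differed by little. On average the knockout read 11876 ± 1377 (SD, n = 3) against 17531 ± 3674 (SD, n = 4), and the difference was -0.54 ± 0.17 (limma adjusted p = 0.297, exact permutation p = 0.0571). Its second probe set gave -0.41, and M140 against M128 gave -0.67. For Psmb1, Psmb2 and Psmb4, other subunits of the inner rings, the differences were -0.08, -0.03 and -0.08.

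The catalytic subunits of the core differed by less than the arrays within a group. Psmb5, the chymotrypsin-like subunit, read 9266, 5514 and 9228 against 8384, 9916, 9897 and 10188, a difference of -0.30 ± 0.20 (limma adjusted p = 0.622). Its low value was that of M10, and without M10 the difference was -0.05. Psmb6, the caspase-like subunit, read 11939, 10596 and 9990 against 11375, 12765, 11375 and 12937, a difference of -0.16 ± 0.11. M10 and M140 were below all wild-type values and M4 was within them, and without M140 the difference was -0.10. Psmb7, the trypsin-like subunit, read 20915, 17760 and 21620 against 12841, 21523, 22106 and 17635, a difference of 0.14 ± 0.19. M23 alone was low, and without it the difference was -0.02.

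The 4 immunoproteasome subunits did not form 1 pattern: 3 read higher and 1 lower, with a median of 0.090. Psmb10, which replaces Psmb7, read 3469, 3176 and 3468 against 3129, 2807, 1943 and 3129. All knockout values were above all wild-type values, the closest being M10 against M23 and M158. On average the knockout read 3371 ± 169 (SD, n = 3) against 2752 ± 560 (SD, n = 4), with a difference of 0.32 ± 0.19 (limma adjusted p = 0.568, exact permutation p = 0.0571). Without M128, which had the low value, the difference was 0.16. Psme1, which encodes the alpha subunit of the activator ring, read 8158, 10442 and 7579 against 11914, 12660, 9450 and 11890. M4 and M140 were below every wild-type array, while M10 lay above M128. Knockout arrays averaged 8726 ± 1514 (SD, n = 3) against 11479 ± 1399 (SD, n = 4), with a difference of -0.40 ± 0.15 (limma adjusted p = 0.378, exact permutation p = 0.114). With array weights in limma it was -0.50 with an adjusted p of 0.0450, in a fit that called 4.57% of all genes, and its adjusted p under all alternatives ran from 0.0450 to 0.877.

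Psmb8 and Psmb9, which lie side by side in the major histocompatibility region, were high on M10. Psmb8 read 1332, 1967 and 1099 against 1197, 1186, 1316 and 1408, a difference of 0.16 ± 0.19 (limma adjusted p = 0.808). Without M10 it was -0.07. Psmb9, which replaces Psmb6, read 975, 1360 and 759 against 882, 1053, 963 and 1060, a difference of 0.02 ± 0.18 (limma adjusted p = 0.977). For both genes M10 had the highest and M140 the lowest value of all 7 arrays, so the knockout spanned the wild type on either side. M140 had the lowest value for 3 of the 4 immunoproteasome subunits, against 16.1% of all genes. The median of the 4 subunits was -0.13 without M10, and M140 minus M128 gave -0.29. Of 14 tested peptide-loading and interferon-regulator genes, 7 were also highest on M10 alone, against 17.7% of all genes. Among them were Tap1 at 1394, B2m at 24487 and Irf1 at 3908. On M10, the 10 T, B and NK lymphocyte markers on the array, tested or not, summed to 7527. That was the highest sum of the knockout arrays and within the wild-type range of 6616 to 7977. Of the 4 that were tested, Cd4 at 1120 and Ptprc at 1280, which is not confined to lymphocytes, were highest on M10. Cd3e at 2462 and Cd8a at 812 were highest on M128, and Cd8a at 573 was lowest on M10. The 10 macrophage markers on the array summed to 29859 on M10, the lowest of the knockout arrays, where wild-type sums ran from 22912 to 36307. Cd3d, Cd3g, Cd79a, Cd79b, Ms4a1 and Nkg7, which define lymphocytes, lay below the filter. Of these, Cd79a at 543 and Nkg7 at 487 were highest on M10. Cd3d at 555 and Cd79b at 496 were highest on M23, and Cd3g at 254 and Ms4a1 at 438 on M128. The part of other cell types in the M10 values was not tested.

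**Figure D2:**
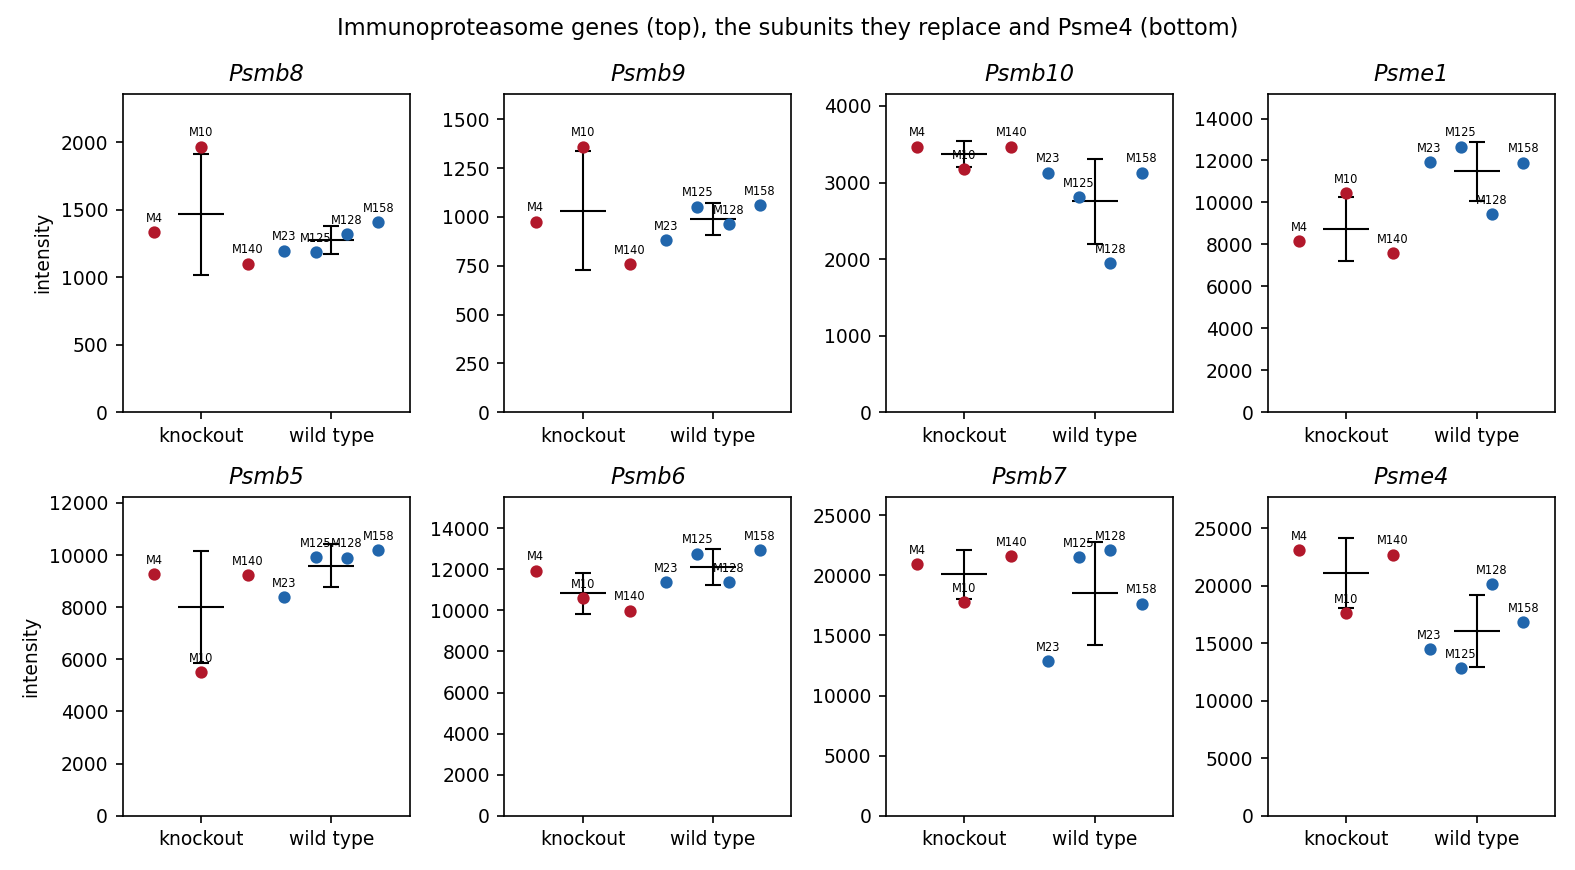
Intensities of Psmb8, Psmb9, Psmb10 and Psme1 (top) and of Psmb5, Psmb6, Psmb7 and the activator Psme4 (bottom), 1 point per array for 3 knockout and 4 wild-type arrays, with a line at each group mean and whiskers of 1 SD. M10 stands highest for Psmb8 at 1967 and Psmb9 at 1360 and lowest for Psmb5 at 5514.

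Each inducible subunit was also set against the constitutive subunit it replaces, as its log2 deviation from the wild-type mean minus that of its partner. For Psmb8 minus Psmb5 the values were 0.11, 1.41 and -0.16 on the knockout arrays and -0.15 to 0.10 on the wild-type arrays. M10 was far above the rest, while M4 and M140 lay just outside the wild-type values. Psmb9 minus Psmb6 gave 0.00064, 0.65 and -0.097 in the knockout and -0.071 to 0.053 in the wild type. M10 was again highest, and M140 lay below the wild type. Psmb10 minus Psmb7 gave 0.15, 0.26 and 0.10, inside wild-type values that ran from -0.76 to 0.71.

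Of the cap's 6 ATPases, which form the unfolding ring, each read higher in the knockout, at 0.08 to 0.47 with a median of 0.25, and none had an unadjusted p under 0.05. Psmc1 read 5292, 4775 and 5715 against 3940, 4775, 2251 and 4775. No knockout value was below any wild-type value, and M10 equalled M125 and M158. On average the knockout read 5261 ± 471 (SD, n = 3) against 3935 ± 1190 (SD, n = 4), a difference of 0.47 ± 0.27 (limma adjusted p = 0.547, exact permutation p = 0.171). Without M128 it was 0.23. Psmc4 read 3063, 2515 and 2922 against 1852, 2825, 2009 and 2337, a difference of 0.34 ± 0.17 (limma adjusted p = 0.486). M4 and M140 were above every wild-type array and M10 below M125. Its second probe set gave 0.24.

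The other ATPases had smaller differences for their spread. Psmc2 read 14654, 14732 and 10498 against 16242, 10836, 8252 and 11333, a difference of 0.21 ± 0.23. Psmc5 read 3396, 3244 and 3381 against 2395, 3774, 1900 and 3824, a difference of 0.23 ± 0.25. In both genes the wild type reached above and below the knockout. Psmc3 read 10192, 9658 and 9327 against 9658, 9658, 6723 and 11324, a difference of 0.08 ± 0.17, which was -0.07 without M128. Psmc6 read 8760, 7064 and 7697 against 5909, 5217, 9104 and 6384, a difference of 0.26 ± 0.20. Here M128 was the highest array and the other wild-type arrays were below all knockout arrays. The second probe set of Psmc6 gave -0.22. Psmc1, Psmc2, Psmc3 and Psmc5 had their lowest value on M128, as did 8 of 17 cap subunits against 22.2% of all genes. Wild-type M23, the array with the lowest Gapdh ratio, held the lowest value for 5 of 17 cap subunits, against 14.3% of all genes. M140 held the highest value for 5 of 17, against 9.65%.

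Of the 11 other cap subunits, 9 read higher in the knockout, with a median of 0.21. Psmd4 read 12660, 9897 and 8915 against 5940, 8701, 4952 and 8379. All knockout values were above all wild-type values, M140 being close to M125. On average the knockout read 10491 ± 1942 (SD, n = 3) against 6993 ± 1836 (SD, n = 4), and the difference of 0.61 ± 0.23 corresponds to 1.52-fold (limma adjusted p = 0.377, exact permutation p = 0.0571). Of its 3 probe sets, 2 read higher and the other gave -0.09. Psmd2, a scaffold subunit of the cap base, read 7363, 4780 and 4261 against 3199, 3819, 2298 and 4618. M4 was far above the other arrays and M140 lay below M158. The difference was 0.65 ± 0.28, or 1.57-fold (limma adjusted p = 0.409, exact permutation p = 0.114), it was 0.42 without M4, and M140 against M128 gave 0.89.

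The deubiquitinating pair of the cap lid leaned the same way. Psmd14, the enzyme that cuts ubiquitin chains off the substrate, read 10657, 6005 and 9348 against 7572, 5889, 5262 and 7726. M4 and M140 were above the wild type and M10 was inside it, for a difference of 0.37 ± 0.23 (limma adjusted p = 0.592). It was 0.20 without M4 and 0.61 without M10. Psmd7, the partner of Psmd14, read 682, 561 and 830 against 325, 710, 378 and 529. M125 lay above M4 and M10, and the difference was 0.54 ± 0.26 (limma adjusted p = 0.467, exact permutation p = 0.171). Psmd7 was dim, at a mean rank percentile of 42.9 over the arrays, close to the filter at percentile 40. Its values on wild-type M23 and M128, 325 and 378, were the lowest. With the filter at percentile 60 Psmd7 was not tested, and 14 cap subunits read higher, with a cap median of 0.22. On day 1, M140 exceeded M128 by 0.83 for Psmd14 and 1.10 for Psmd7.

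The other 7 non-ATPase subunits, mostly scaffolds of the lid, ran from -0.25 to 0.22. Psmd13 read 2648, 1775 and 2648 against 3130, 2412, 2440 and 3177, a difference of -0.25 ± 0.19 that both of its probe sets gave. M10 was its lowest array, and the other knockout values lay among the wild type. Without M10 the difference of Psmd13 was -0.062. Psmd12 read 7094, 6761 and 7272 against 5046, 6339, 6761 and 6365, a difference of 0.21 ± 0.13. No knockout value of Psmd12 was below a wild-type value, and M10 equalled M128. Psmd8 at 0.22 ± 0.31, Psmd3 at 0.10 ± 0.18 and Psmd6 at 0.06 ± 0.21 had wide overlaps. Psmd11 at 0.01 ± 0.23 and Psmd1, the largest scaffold, at -0.07 ± 0.29 overlapped too, and the 5 probe sets of Psmd11 ran from -0.34 to 0.07.

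**Figure D3:**
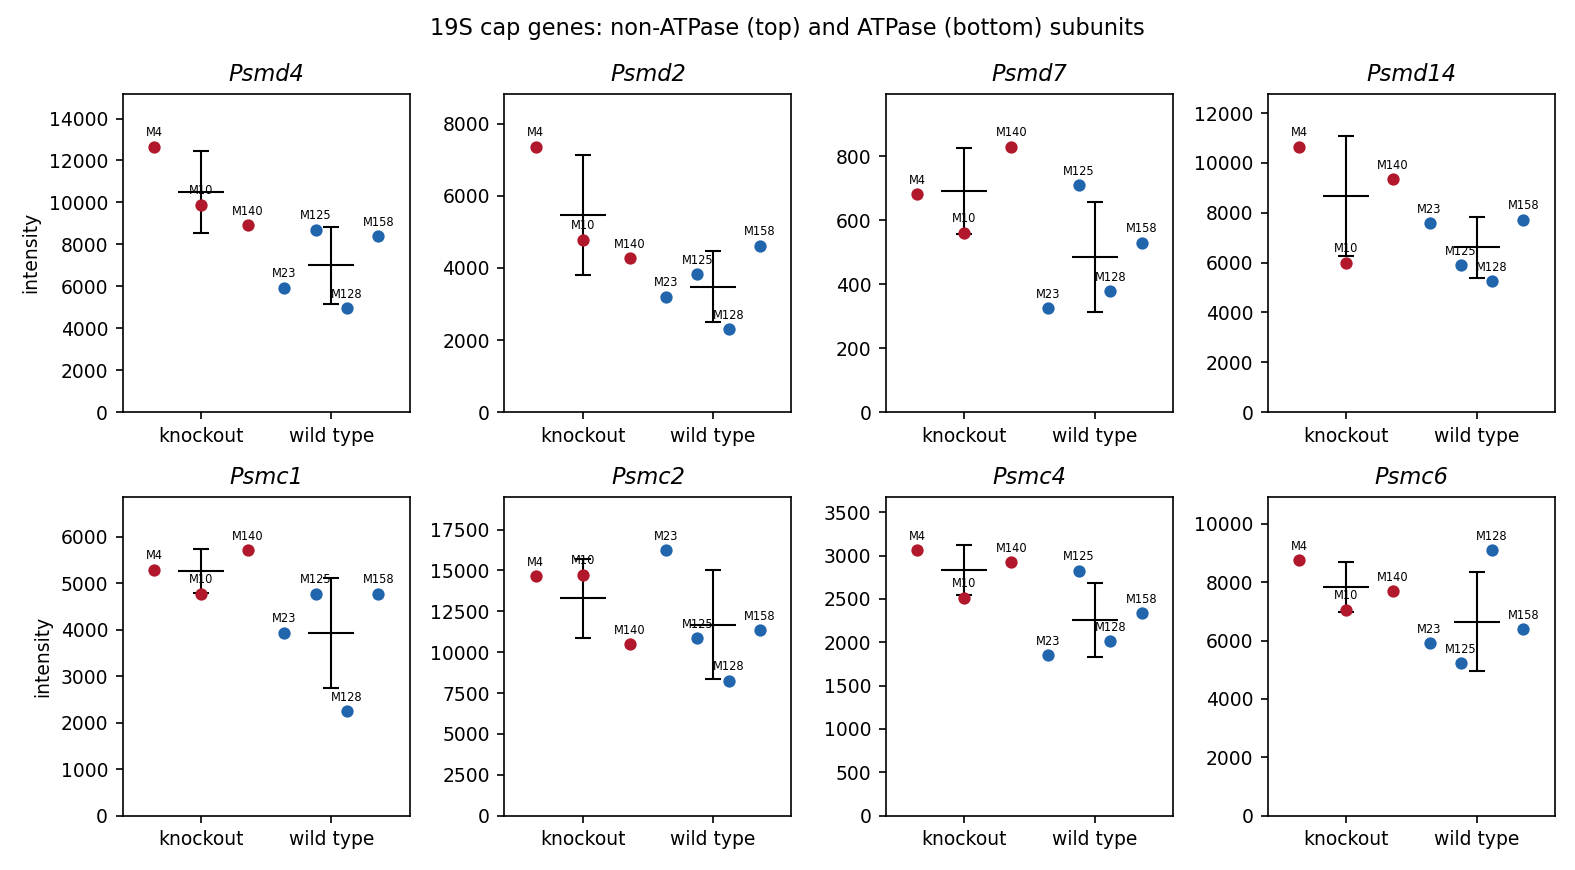
Intensities of 4 non-ATPase (top) and 4 ATPase (bottom) cap subunits, 1 point per array for 3 knockout and 4 wild-type arrays, with a line at each group mean and whiskers of 1 SD. All knockout values of Psmd4, 8915 to 12660, lie above the wild type at 4952 to 8701, and the wild-type array M128 is the lowest for Psmc1 at 2251 and Psmd2 at 2298.

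The chaperones that assemble the cap base were mixed. Psmd10, also known as gankyrin, read 645, 537 and 595 against 391, 541, 482 and 537, a difference of 0.28 ± 0.12 (limma adjusted p = 0.436). Only M10 lay within the wild type, and without M23 the difference was 0.18. Psmd5 gave -0.10 ± 0.11 and Psmd9 -0.0045 ± 0.08, with overlapping groups. The proteins Psmc3ip and Psme3ip1, which are no subunits, gave -0.08 ± 0.11 and -0.0032 ± 0.13.

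Both other activators read higher in the knockout. Psme4, which caps the core end and admits peptides without ubiquitin, read 23090, 17589 and 22683 against 14493, 12844, 20123 and 16822. M4 and M140 were above every wild-type array, and M10 was below M128. Knockout arrays averaged 21121 ± 3065 (SD, n = 3) against 16071 ± 3156 (SD, n = 4), and the difference was 0.40 ± 0.17 (limma adjusted p = 0.406, exact permutation p = 0.114). All 3 of its probe sets read higher, at 0.34 to 0.54, while M140 against M128 gave 0.17. Psme3, the nuclear activator, read 2418, 1952 and 2033 against 2014, 1851, 1672 and 1966, a difference of 0.18 ± 0.12 (limma adjusted p = 0.634). M10 was within the wild type, the difference was 0.09 without M4, and the second probe set of Psme3 gave -0.19.

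The classes also varied between the arrays of a genotype. The median deviation of the ATPases from their wild-type mean was 0.40, 0.18 and 0.24 on M4, M10 and M140 and -0.04, 0.21, -0.45 and 0.19 on the wild-type arrays. M128 was low, while M125 and M158 lay near M10 and M140. For the non-ATPase cap subunits the medians were 0.29, -0.12 and 0.39 in the knockout and -0.20, 0.16, -0.29 and 0.18 in the wild type. M10 was thus below M125 and M158 in that class. For the alpha subunits the medians were 0.12, -0.27 and 0.04 in the knockout and -0.19, -0.07, 0.26 and -0.03 in the wild type. M128 was thus the highest array of the alpha class and the lowest of the ATPases. M4 held the highest value for 10 of 42 members and the lowest for 0, against 13.6% and 11.6% of all genes. The part of the day, of atrial tissue or of RNA integrity in these array patterns was not tested.

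**Figure D4:**
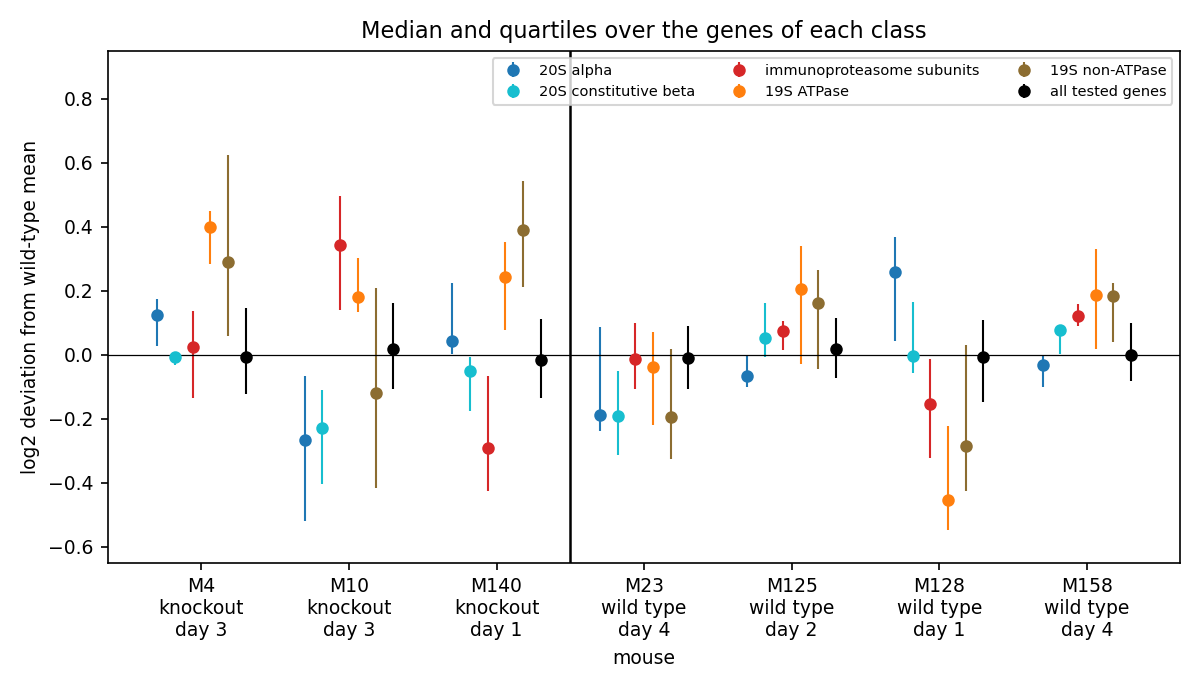
Log2 deviation from the wild-type mean on the 7 arrays, as the median (point) and quartiles (line) over the genes of 5 subunit classes and of all tested genes. M128 has the ATPases at -0.45 and the alpha subunits at 0.26, and M10 has the immunoproteasome at 0.34 and the alpha subunits at -0.27.

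**Figure D5:**
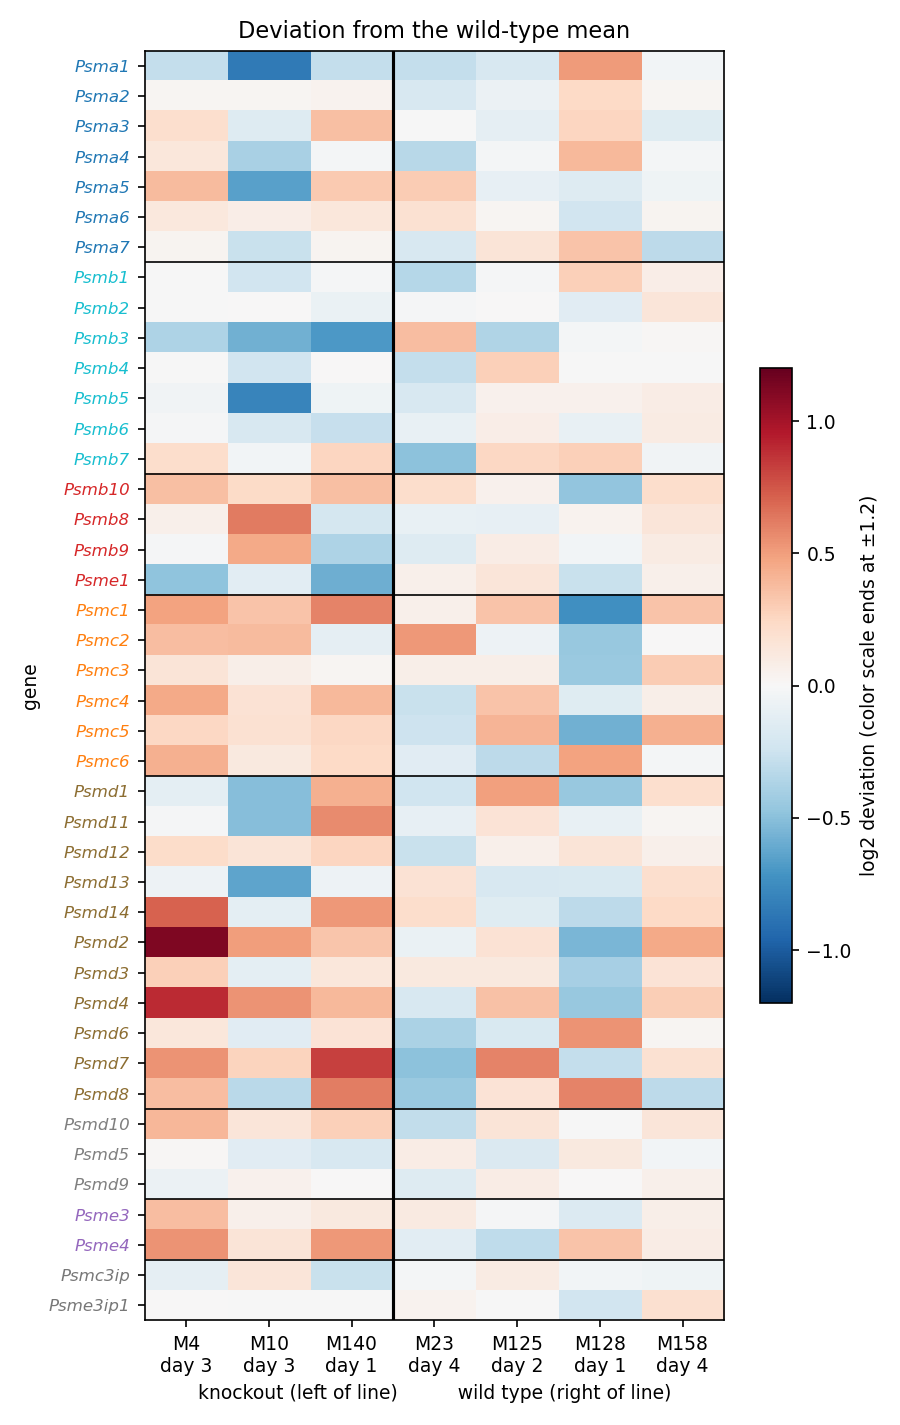
Log2 deviation of every tested proteasome gene from its wild-type mean, with genes down the side by class, the 7 arrays across, and red above and blue below the wild-type mean. The cap genes are mostly above zero on M4 and M140 and below it on M128, and Psmb8 and Psmb9 are highest on M10.

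Other genes of the pathway were taken from 7 lists, and none of their genes passed an adjusted p of 0.05. All 7 tested genes of the p97 segregase, the ATPase that pulls tagged proteins from membranes and complexes, read higher, with a median of 0.38 and 3 of 7 at an unadjusted p under 0.05. Over all genes 49.4% read higher and 50.6% lower, and 6.77% were higher and 5.4% lower at that threshold, which are the shares to set beside the counts of every list here. Ubxn4, an anchor of p97 at the endoplasmic reticulum, read 3014, 1853 and 2232 against 1734, 1376, 1293 and 1423. Its groups did not overlap, and the difference was 0.67 ± 0.18 (limma adjusted p = 0.259). Ufd1 gave 0.41 ± 0.16, also without overlap, and Ubxn1 gave 0.81 ± 0.35. On M4 alone 6 of the 7 were highest, against 13.6% of all genes, and M140 minus M128 had a median of 0.49.

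Of 6 genes of core assembly and inhibition, 5 read lower, with 1 at an unadjusted p under 0.05 in each direction. Pomp, the maturation factor of the core, read 11302, 9721 and 8482 against 8065, 7608, 7977 and 7526, with no overlap and a difference of 0.33 ± 0.12 (limma adjusted p = 0.377). On day 1 alone, M140 exceeded M128 by 0.088 for Pomp, and without M4 the difference was 0.22. Psmg3, a chaperone of the alpha ring, gave -0.23 ± 0.10. Of 8 ubiquitin receptors and deubiquitinases that work with the cap, 4 read higher and 4 lower. Uchl5, a deubiquitinase of the cap, had 0.41 ± 0.15 and was the one with an unadjusted p under 0.05.

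Of 7 ubiquitin and conjugation genes, 2 had an unadjusted p under 0.05 in each direction. Ube2d3, a ubiquitin-conjugating enzyme, read 14259, 15756 and 14000 against 12526, 10956, 9337 and 10913, with no overlap and a difference of 0.43 ± 0.12 (limma adjusted p = 0.262). Its relative Ube2d1 gave -0.41 ± 0.13, and 0.0070 for M140 minus M128. Of 10 ubiquitin ligases known in muscle, 4 read higher and 6 lower, with a median of -0.025. At that threshold 2 were higher and 0 lower. Nedd4 read 8795, 10075 and 7864 against 4587, 6914, 5137 and 6415, with no overlap and a difference of 0.64 ± 0.18 (limma adjusted p = 0.263). Trim54 gave 0.77 ± 0.26, and Fbxo32, the ligase atrogin-1, gave -0.02. Of 11 regulators of proteasome genes, 8 read higher and 0 had an unadjusted p under 0.05 in limma. Nfe2l1 and Nfe2l2, the factors tied to the antioxidant response element, gave 0.03 and 0.10. Of 14 genes of peptide loading and interferon regulation, 1 was lower at that threshold, the interferon gamma receptor subunit Ifngr2 at -0.35 ± 0.12. Its 3 knockout values, 1929 to 2360, were below all wild-type values of 2579 to 2726.

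Markers of some other cell types read higher in the knockout. Of 9 tested macrophage markers, 8 read higher in the knockout and 3 had an unadjusted p under 0.05, against 49.4% and 6.77% of all genes. Summed over all 10 macrophage markers on the array, including Fcgr1 below the filter, the levels were 29859 to 39766 against 22912 to 36307. All knockout values of Cd68, Csf1r, Cd163 and Fcgr1 were above all wild-type values, against 5.29% of all tested genes. The groups overlapped for the other macrophage markers. For endothelial markers 5 of 6 read higher, with sums of 13953 to 15920 against 9509 to 14780, the lowest being that of M128. Vwf, the von Willebrand factor of endothelial cells, read 4678, 5302 and 2950 against 1350, 2792, 1407 and 1729, with no overlap and a difference of 1.26 ± 0.30 (limma adjusted p = 0.224). Vwf was the only 1 of the 6 endothelial markers without overlap, against 5.29% of all genes with the knockout above. Kdr read lower, at -0.29 ± 0.26. Of 4 tested T, B and NK lymphocyte markers, 1 read higher and 3 lower, against 49.4% and 50.6% of all genes. The higher one was Ptprc at 0.39, which is not confined to lymphocytes, and Cd3e, Cd8a and Cd4 read lower. Fibroblast markers had 4 of 7 higher, with sums of 19994 to 86192 against 25646 to 42222. Their part in the cap subunits' values was not tested.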

How the data were processed

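The deposited table gave 1 intensity per probe set and array, on a linear scale, for 22690 probe sets of 7 Affymetrix arrays. For the software, background correction and scaling of the authors' values, the sources used here give nothing. Experiment sheets deposited with it, scanner workstation text files per the file headers, hold other information and no measurement. They gave the hybridization days, coded 1 to 4 from the earliest, which coincide with 4 chip lots, and a comment for M23 about 2 combined processings. Array number, not depth, limits the precision.

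Left out were 64 control probe sets. Of the other 22626, a platform table named 1 gene for 20380, several for 691 (not named) and none for 1555. By gene number, all 43 members were found in the GRCm38.p6 gene table. Values were taken as log2(intensity + 16), which understates differences of dim probe sets. Tested were the 13836 probe sets above the 40th percentile of their array on at least 3 arrays, representing 8867 genes by the brightest one. Of the members, 15 had equal deposited values on at least 2 arrays (tolerance 0.0001). The brightest probe sets of Psma6, Psmc2, Psmd13, Psme4 and Psmd11 carry suffixes of designs that can hybridize to related transcripts.

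Genotypes were compared over the whole table with limma 3.58.1 in R 4.3.3 (lmFit, then eBayes with trend, two-sided), with no covariate, Benjamini-Hochberg adjustment and a threshold of 0.05. The fit was tested on simulated data whose arrays were independent, with no effect of day. The planted differences were larger than that of any member, so the simulation does not cover the differences seen here. Single genes were also compared by exact two-sided permutation over the 35 splits of the arrays (scipy 1.17.1). Mouse and hybridization are mixed in the spread that the p-values rest on. A knockout or wild-type array is 1 mouse, per the labels. Genes named were the immunoproteasome subunits, those they replace, the other activators, the 12 members with the smallest p, the highest and lowest difference of each class, members below the filter, the 3 smallest p of each related list, and Nos3. Members and lists were chosen with earlier results of these data known, so they are not independent evidence. Other members are given to account for all of them, and Tap1, B2m, Irf1, Fbxo32, Nfe2l1, Nfe2l2 and the marker genes are outside the rule, chosen once values had been seen. Alternatives changed the offset, filter, normalization, probe set choice, weights, day block and arrays included.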

Additional observations from a re-analysis of the deposited data

Results flagged for a closer look

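Among 44 named genes, Dixon's test at the 95% level was run on the 4 wild-type arrays of each, and by chance it marks about 1 group in 20. It marked 2. For Psmb5, the wild-type array M23 at 8384 lay apart below the other 3 at 9897 to 10188. For Psmg2, an assembly chaperone of the core, M125 at 1861 lay apart above the other wild-type arrays.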

How the results depend on the processing

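No paired analysis was possible because the mouse numbers are not shared between the genotypes. Of 1071 alternative values for 44 named genes, 1023 kept their direction and side of the threshold, 22 moved, 23 reversed and 3 passed the threshold. The causes were not tested. The 3 members higher at an unadjusted p under 0.05 were 10 with array weights, 5 with day as a fixed block, 1 with the Gapdh ratio as covariate, 6 without M10 and M125, and 0 to 4 leaving out single arrays. The 2 lower were 0 without M23 and M158, and 1 to 2 leaving out single arrays. Because only day 1 held both genotypes, a fixed day block gives M140 minus M128, the same single comparison as day 1 alone. The cap median was 0.54 in that comparison and 0.15 to 0.28 leaving out single arrays. The core median ran from -0.15 to 0.016 leaving out single arrays and from -0.19 to 0.029 over all alternatives. The immunoproteasome median was -0.29 for M140 minus M128, -0.14 without M10 and M125, and -0.13 to 0.26 leaving out single arrays. Cap subunits above zero numbered 12 to 16 under the alternatives run for all members, and 11 with second brightest probe sets, an alternative chosen after seeing the data. With day as a fixed block, Psmb9 gave -0.34, Psmb8 -0.26, Psmb7 -0.032, Psmd13 0.12, Psmg2 0.13 and Ube2d1 0.0070. With array weights Psmb9 gave -0.045 and Psmc3 -0.013. Psmb9 was -0.050 with day as a random block and -0.0038 with Myl7 as covariate. Without M23 and M158, Psmb9 was -0.0064 and Psmb7 -0.12. Without M10 and M125, Psmb9 was -0.16, Psmb8 -0.11 and Psmb7 0.31. Psmb7 was -0.043 with the Gapdh ratio. Leaving out single arrays, Psmb9 ran from -0.19 to 0.22, Psmb8 from -0.072 to 0.34, Psmb7 from -0.021 to 0.24 and Psmc3 from -0.067 to 0.18. Psme3 was -0.0026 as the mean of its probe sets and -0.19 on the second brightest, where Psmd4 was -0.091. Past the threshold with array weights were Psme1 at -0.50, Ube2d1 at -0.51 and Ubxn4 at 0.87.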
